A study of Drosophila melanogaster with 18 samples.

Results

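Whole-fly RNA of 3 Tudor-SN knockdown libraries was compared with that of 3 control libraries, all from flies kept at normal atmospheric oxygen. They are the 6 libraries titled knockdown normoxia and control normoxia among the 18 of the series, and the other 12 are knockdown and control flies held at 6% or 2% oxygen for 6 hours. Knockdown flies were w;;Da-GAL4/UAS-Tudor-SN RNAi and control flies were w;;+/UAS-Tudor-SN RNAi. Both groups therefore carried the same hairpin transgene (Bloomington stock 34865), and only the knockdown flies carried the daughterless GAL4 driver, which is active in nearly all tissues. All were females 1 to 5 days old, raised at 25 °C on mashed potato food, with 10 flies in each library. Flies with the driver and no hairpin were not analysed here, so the effects of the hairpin cannot be told apart from those of the driver or its chromosome. In whole flies, fewer cells of a type and less RNA per cell cannot be told apart.

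Tudor-SN (SND1 or p100 in mammals) is a conserved protein built of repeated staphylococcal-nuclease-like domains and a Tudor domain. It binds double-stranded RNA that has been edited to inosine, was purified with the RNA-induced silencing complex of flies, and is found in stress granules. In other animals it has also been described as a transcriptional co-activator and a partner of the spliceosome.

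The levels are FPKM, which are fragment counts divided by transcript length and by library size, from libraries of poly(A)-selected RNA. They were scaled between libraries and compared on the log2(scaled FPKM + 1) scale, which understates the change of low genes. Coordinates are those of BDGP6. A gene counts as called when its adjusted p was under 0.05 (limma, Benjamini-Hochberg over the 9921 genes whose mean reached 1 FPKM), and "rose" or "fell" is used of called genes only. The spacing of low FPKM values put each of the 6 libraries at about 20800000 to 21300000 fragments, so that 1 FPKM of a 1500-base transcript is about 27.2 fragments. The 38 genes of the mitochondrial genome were listed at 0 throughout. The summed level of 6 male markers was 0.202, 0.261 and 0.509 FPKM in knockdown libraries, against 0.296, 1.14 and 1.09 FPKM in control libraries, near 0 in both groups, as their female label says. On the first principal component, with 44.8% of the variance, the knockdown libraries lay at -18.5, -16.5 and -13.4, and the control libraries at 21.3, 6.65 and 20.4. Control replicate 2 thus lay closer to the knockdown libraries than the other 2 controls did, and some counts are also given without it.

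The target of the hairpin was lower in every knockdown library. Tudor-SN (FBgn0035121, BDGP6 chromosome arm 3L, bases 259043 to 264380, minus strand) had 18.2, 20.8 and 20.6 scaled FPKM in knockdown flies, against 210, 218 and 215 scaled FPKM in control flies. The means were 19.9 ± 1.44 and 214 ± 4.15 scaled FPKM (SD, n = 3 each), so that 9.28% of the control level remained. The log2 difference was -3.37 ± 0.0771 (SE, adjusted p = 1.41e-13). A 2-sided exact permutation test over the 6 libraries gave p = 0.1, the smallest that 3 against 3 allows. The libraries do not mark the strand as far as the protocol says, and the locus shares bases with 1 gene on the opposite strand, wac, which was not called (log2 0.05, adjusted p = 0.634). The same contrast was -3.70 at 6% oxygen and -4.68 at 2% oxygen, and the normoxia difference was smaller in size than that at 2% oxygen by 1.32 (adjusted p = 2.74e-05).

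Of the 9921 genes tested, 1589 (16.0%) were called, of which 585 (5.9%) were higher and 1004 (10.1%) lower in knockdown flies. The counts of gene lists are to be read against these shares of 5.9% and 10.1%. Most differences were small: the median absolute log2 difference was 0.38 among called genes and 0.13 among all tested genes. Only 20 genes (0.202%) rose and 72 (0.726%) fell by at least 2-fold on the log2(scaled FPKM + 1) scale. Genes of low level can differ 2-fold in FPKM and still miss this limit. In 4030 genes (40.6%) the groups did not overlap, and this was so for 1549 of the called genes. Leaving out any of the other 5 libraries gave 614 to 1010 called genes, and leaving out control replicate 2 gave 2235. The split between directions depended on the scaling, since quantile normalisation made 53.6% of the calls higher, against 36.8% here, while it moved the median of all genes to 0.04.

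The genes that rose most include secreted proteases, a copper importer and several genes of unknown role. CG32198 (chromosome arm 3L, bases 18526976 to 18527445) had 77.4, 104 and 75.8 scaled FPKM in knockdown flies, against 3.25, 10.5 and 15.2 scaled FPKM in control flies. CG17234, a predicted trypsin-type protease, had 11.2, 5.90 and 6.62 scaled FPKM in knockdown flies, against 0.895, 0.546 and 0.0805 scaled FPKM in control flies. The log2 differences were 3.21 ± 0.503 and 2.56 ± 0.273 (SE, adjusted p = 0.00196 and 6.41e-05). CG17239, 704 bases from CG17234 and of the same protease family, rose as well, with 47.2, 43.2 and 41.0 scaled FPKM in knockdown flies, against 22.3, 16.0 and 9.21 scaled FPKM in control flies. Send2, an endopeptidase named for its expression in the spermatheca, the sperm store of the female, had 4.80, 4.18 and 2.42 scaled FPKM in knockdown flies, against 0.518, 0.248 and 0.256 scaled FPKM in control flies. The genes with the largest differences either way were picked among those whose groups do not overlap, so that this lack of overlap is a property of the choice.

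otk2, which encodes a transmembrane protein related to receptor tyrosine kinases, had 7.63, 9.79 and 7.40 scaled FPKM in knockdown flies, against 1.29, 1.47 and 1.49 scaled FPKM in control flies (log2 1.93 ± 0.133, adjusted p = 5.22e-07). inaF-D, from the inaF cluster of small membrane proteins, rose by 1.62 on the log2 scale (13.1, 13.9 and 15.8 in knockdown against 4.24, 3.67 and 4.01 scaled FPKM in control flies). Cda9, a chitin deacetylase-like gene, rose by 1.36. CG13078, CG32751, CG42598, CG15254 and CG41284 rose by 1.83, 1.66, 1.22, 1.18 and 1.11, and CG42598 and CG41284, both on chromosome arm 3L, had nearly equal values in each of the 6 libraries. All of these genes that rose kept their call without any one library. 2 small nucleolar RNAs also passed the test, snoRNA:Psi18S-920 with 18.8, 61.8 and 21.4 and snoRNA:Psi28S-2149 with 15.9, 52.0 and 18 scaled FPKM in knockdown flies, and all control libraries were listed at 0 for both. Their loci are 141 and 144 bases long and RNAs of this class are not normally polyadenylated, so no fold change is given.

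Genes that fell most include an esterase, a neuropeptide-like precursor, digestive enzymes and metallothioneins. Est-6, the carboxylesterase called esterase 6, had 8.98, 8.31 and 8.52 scaled FPKM in knockdown flies, against 43.5, 47.9 and 54.1 scaled FPKM in control flies (log2 -2.36 ± 0.141, adjusted p = 1.63e-07). Nplp3, which encodes neuropeptide-like precursor 3, had 94.8, 57.0 and 131 scaled FPKM in knockdown flies, against 1036, 277 and 439 scaled FPKM in control flies. Its controls spread by more than 3-fold, and the log2 difference was -2.48 ± 0.448 (adjusted p = 0.00432). CG15199 had 1.36, 2.74 and 2.76 scaled FPKM in knockdown flies, against 26.3, 12 and 16.7 scaled FPKM in control flies. Besides Tudor-SN, the loci of Est-6, CG15199, CG6839, CG34211, ND-B8, Mal-A1 and tobi share bases with a gene on the opposite strand. The same holds for Ctr1B, inaF-D and CG41284 among the genes that rose most. Part of the reads of all these genes could be the partner's.

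CG3819 and CG6839, predicted nucleases that lie 1171 bases apart on chromosome arm 3L, fell together. CG3819 had 5.83, 5.53 and 2.76 scaled FPKM in knockdown flies, against 29.0, 25.2 and 18.7 scaled FPKM in control flies, and CG6839 had 1.87, 1.60 and 0.881 against 13.8, 8.95 and 8.38 scaled FPKM. Their log2 differences were -2.18 ± 0.294 and -2.21 ± 0.310 (adjusted p = 0.000639 and 0.000755). Try29F, a trypsin, fell by 2.07, CG34211 by 2.11, CG15282 by 1.99 and CG15617 by 1.73 on the log2 scale. CG15043 also passed, at -2.25 ± 0.680, but its second knockdown library (19.7 scaled FPKM) came close to its lowest control (22.6). The calls of CG15043, CG34211 and Try29F were lost when 1 library was left out (knockdown replicate 1 for CG15043 and Try29F, control replicate 1 or 3 for CG15043 and CG34211, among others), with adjusted p up to 0.157, 0.0834 and 0.0544.

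**Figure D1:**
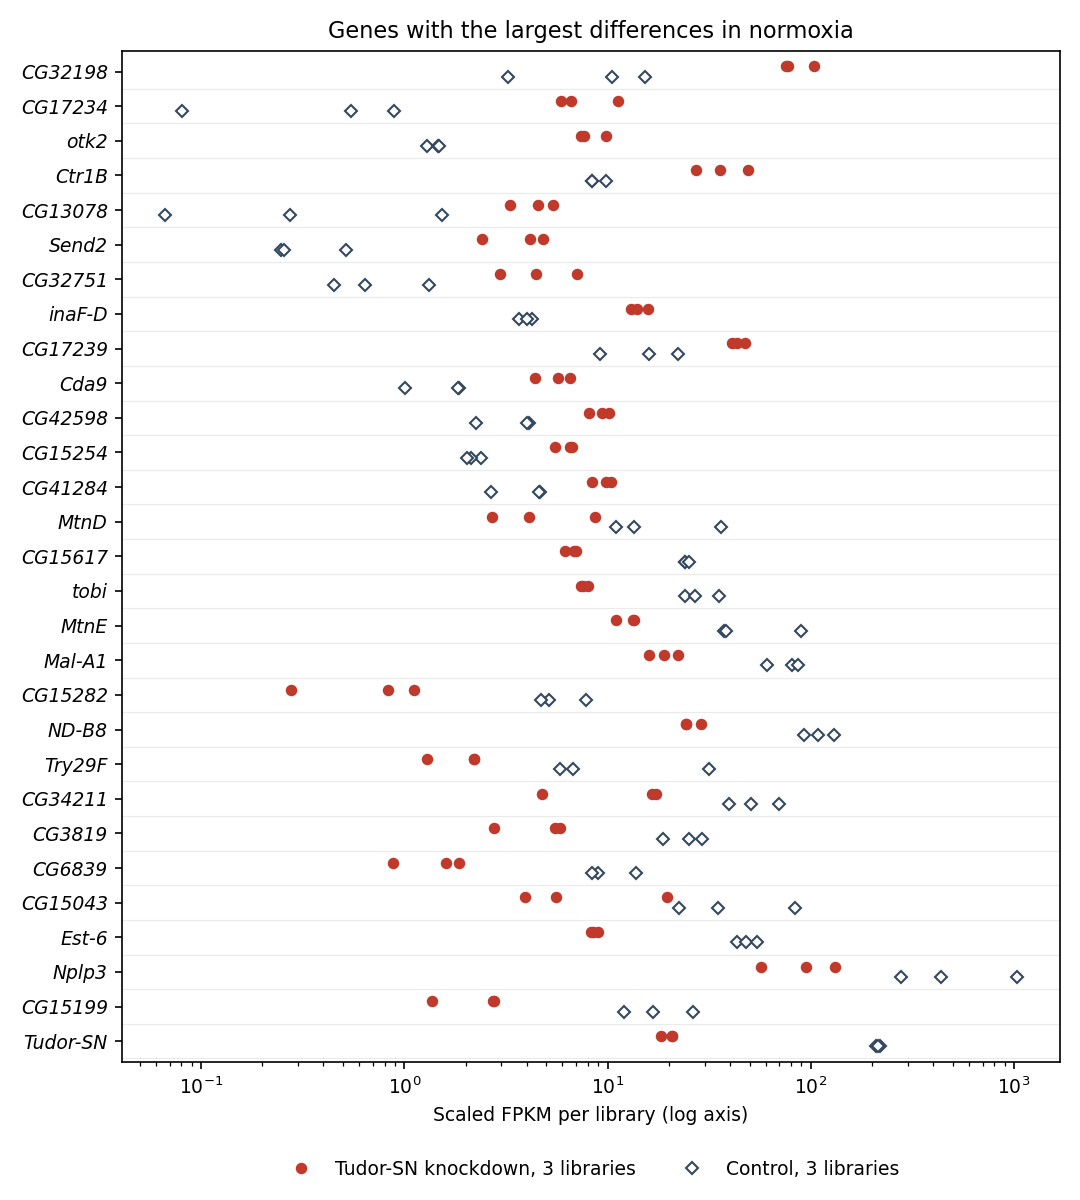
Scaled FPKM of each library on a log axis for Tudor-SN and the genes with the largest differences that had values above 0 in all 6 normoxia libraries, with knockdown libraries as filled circles above and control libraries as open diamonds below in each row. Genes whose groups overlap were left out by the rule that picked them. CG32198 lies at 75.8 to 104 in knockdown flies and at 3.25 to 15.2 in control flies, and Tudor-SN at 18.2 to 20.8 in knockdown flies and at 210 to 218 in control flies.

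Some changes of at least 2-fold were shared by neighbouring genes. Of the 92 such called genes, 20 (21.7%) had another one within 20000 bases, against 4.93% of the other tested genes that had one of the 92 that near. They formed 13 pairs, 5 of them between maltases, and in all 13 both genes moved the same way, where 72 of the 92 had fallen. The pairs include CG17234 with CG17239, MtnD with MtnE (258 bases apart), Cpr65Au with Lcp65Ag2, Nplp3 with CG13059 and the maltases Mal-A1, Mal-A6, Mal-A7 and Mal-A8. By chromosome arm, the share of tested genes called was 15.3% on X, 2L, 3R and 4, 16.6% on 2R and 17.7% on 3L.

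The nuclear genes of the respiratory chain and the ATP synthase were lower almost without exception, by about the same amount in every complex. These complexes of the inner mitochondrial membrane pass electrons from NADH and succinate to oxygen and use the resulting proton gradient to make ATP. Of 90 listed genes 73 were tested and 67 of them fell, against 10.1% of all tested genes, while the median log2 difference was -0.46, against -0.01 over all genes. The 17 not tested had means under 1 FPKM, and 14 of them carry the suffix L for a gene that resembles the main one. Summed over the list, the level was 38387, 36431 and 38029 FPKM in knockdown flies, against 54212, 49227 and 53101 FPKM in control flies. The knockdown sum was 37616 ± 1042 FPKM and the control sum 52180 ± 2617 FPKM (SD, n = 3 each), so that 72.1% of the control level remained. In 70 of the 73 genes all 3 knockdown values lay below all 3 control values, which held for 19.1% of all tested genes.

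In complex I, the NADH dehydrogenase, 32 of 34 tested genes fell, with a median of -0.47. ND-23, an iron-sulphur subunit, had 194, 201 and 204 scaled FPKM in knockdown flies, against 320, 282 and 316 scaled FPKM in control flies (log2 -0.61 ± 0.0792, adjusted p = 0.000317). ND-B14 had 109, 107 and 104 scaled FPKM in knockdown flies, against 211, 152 and 180 scaled FPKM in control flies (log2 -0.74 ± 0.114). ND-B14.5A and ND-B14.7 fell by 0.48 and 0.59. ND-B8 stood apart from the other subunits, with 24.2, 28.8 and 24.4 scaled FPKM in knockdown flies, against 130, 92.5 and 108 scaled FPKM in control flies. Its difference was -2.04 ± 0.407 (adjusted p = 0.00681), and its locus (2L, bases 4454626 to 4455207) overlaps that of Gs1l on the opposite strand, which fell by 0.27. The 2 complex I genes that missed the threshold, named after their values were seen, were ND-49 at -0.37 (adjusted p = 0.0547) and ND-ACP at -0.15 (adjusted p = 0.165).

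All 4 tested subunits of complex II, succinate dehydrogenase, fell. SdhB had 197, 191 and 191 scaled FPKM in knockdown flies, against 290, 255 and 287 scaled FPKM in control flies (log2 -0.52 ± 0.110), and SdhA, SdhC and SdhD fell by 0.46, 0.52 and 0.37. In complex III, with cytochrome c, 10 of 11 fell. Its Rieske protein RFeSP had 434, 418 and 426 scaled FPKM in knockdown flies, against 715, 607 and 658 scaled FPKM in control flies (log2 -0.63 ± 0.115). UQCR-6.4, UQCR-14 and UQCR-Q fell by 0.64, 0.60 and 0.49. The member that missed the threshold, Cyt-c-d, had at most 2.68 scaled FPKM in any of the 6 libraries.

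In complex IV, cytochrome c oxidase, 9 of 11 fell. COX5A had 847, 853 and 836 scaled FPKM in knockdown flies, against 1246, 1143 and 1210 scaled FPKM in control flies (log2 -0.50 ± 0.0950), and levy, COX5B and COX7C fell by 0.54, 0.64 and 0.62. COX7A was the exception: its values were 490, 507 and 481 scaled FPKM in knockdown flies, against 446, 445 and 465 scaled FPKM in control flies, the opposite direction without overlap, at 0.12 ± 0.0469 (adjusted p = 0.0827). In the ATP synthase 12 of 13 fell. ATPsynO had 612, 549 and 596 scaled FPKM in knockdown flies, against 882, 790 and 862 scaled FPKM in control flies (log2 -0.53 ± 0.108), and ATPsynB, sun and ATPsynCF6 fell by 0.52, 0.40 and 0.44. ATPsynC, the ring subunit and the most abundant of the list, had 2985, 2718 and 2990 scaled FPKM in knockdown flies, against 3870, 3539 and 3664 scaled FPKM in control flies. Without control replicate 1 the number of the 73 genes called lower was 42, and it lay between 42 and 68 over the libraries left out in turn. That of the ATP synthase was 5 without control replicate 1 and 7 without control replicate 3 or knockdown replicate 2. For complex II it was 1 or 2 without any library other than control replicate 2, and for complex I it was 21 without control replicate 1.

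The mitochondrial ribosome and the import genes were not lower with the respiratory chain. Of 72 mitochondrial ribosomal protein genes 4 rose (5.56%) and 1 fell (1.39%), with a median of 0.01. Their summed level was 5846 ± 124 FPKM in knockdown flies and 5840 ± 135 FPKM in control flies. mRpL50 rose with 80.3, 81.3 and 77.1 scaled FPKM in knockdown flies, against 53.1, 59.5 and 57.2 scaled FPKM in control flies (log2 0.49 ± 0.0578, adjusted p = 0.000150), mRpL22 by 0.31 and mRpS29 by 0.22, and mRpL34 fell by 0.34. Among 26 genes of protein import and quality control, 6 rose, against 5.9% of all tested genes, and 1 fell. The chaperonin Hsp60A had 298, 308 and 287 scaled FPKM in knockdown flies, against 249, 248 and 248 scaled FPKM in control flies (log2 0.26 ± 0.0520), and the import genes Tom40 and ttm50 rose by 0.14 and 0.20. Pink1, the kinase that marks damaged mitochondria, fell by 0.22 (adjusted p = 0.00377). Of 15 genes that maintain and transcribe the mitochondrial genome, bsf, an RNA-binding protein, fell by 0.28.

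Among 15 genes of mitochondrial carriers and porin 4 fell and 1 rose, against 10.1% and 5.9% of all tested genes. Mpcp1, a phosphate carrier, had 296, 263 and 294 scaled FPKM in knockdown flies, against 586, 457 and 478 scaled FPKM in control flies (log2 -0.83 ± 0.239). The uncoupling-protein relatives moved in opposite directions, with Ucp4A down by 0.42 and Bmcp up by 0.19 (adjusted p = 0.00460 and 0.00428). colt, a carnitine carrier, fell by 0.20. Without any library other than control replicate 2 the import and quality list held 1 to 4 genes that rose and the carriers 1 or 2 that fell, and without knockdown replicate 2 or control replicate 1 the mitochondrial ribosome held 2 that rose. Without knockdown replicate 3 none of the 72 was called lower by limma, where 20 had an unadjusted p under 0.05 in the full comparison.

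**Figure D2:**
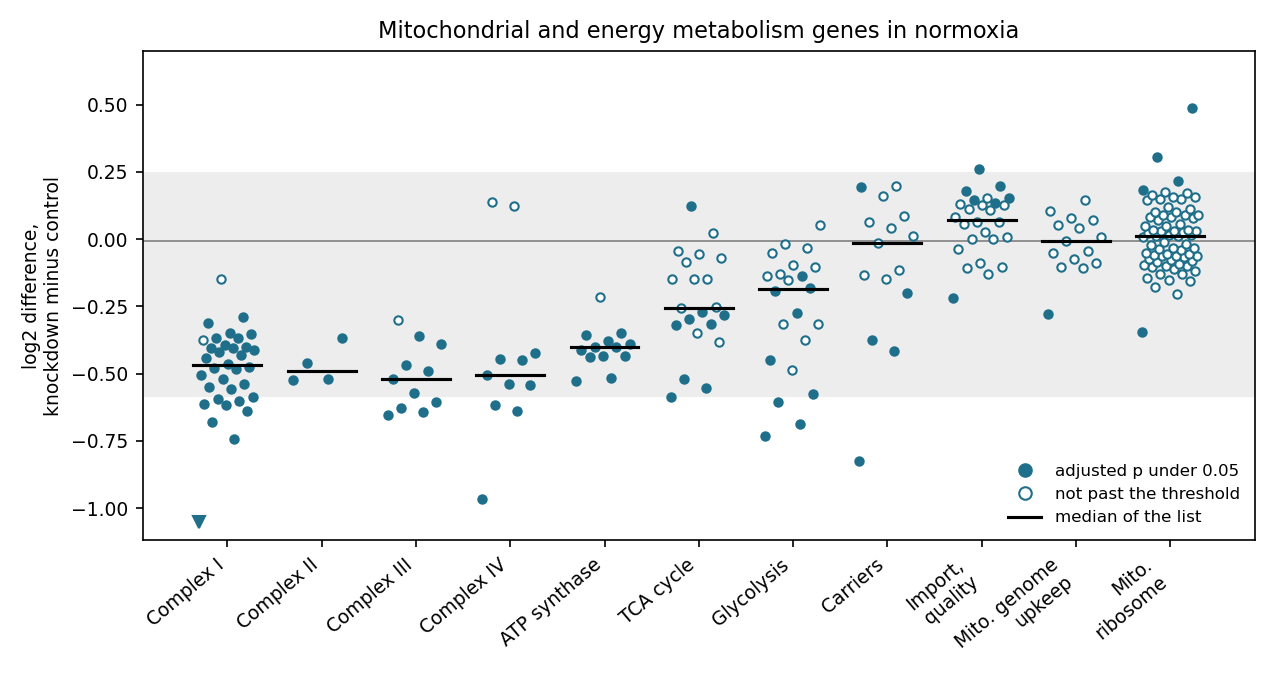
Log2 difference, knockdown minus control in normoxia, for every tested member of the mitochondrial and energy lists; filled points passed the adjusted p of 0.05, open points did not, black bars are list medians and the grey band spans the 5th to 95th percentile of all 9921 genes (-0.58 to 0.24). ND-B8, at -2.04, is drawn as a triangle at the lower edge; the 5 respiratory lists have medians of -0.40 to -0.52 and the mitochondrial ribosome has 0.01.

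Feeder pathways shifted in the same direction for part of their genes. In the tricarboxylic acid cycle, which oxidises acetyl groups in the mitochondrial matrix, 8 of 21 tested genes fell (38.1%) and 1 rose (4.76%). The shares of all tested genes were 10.1% and 5.9%, and the median of the cycle genes was -0.26. Its isocitrate dehydrogenase gene CG5028 had 148, 155 and 156 scaled FPKM in knockdown flies, against 248, 209 and 219 scaled FPKM in control flies (log2 -0.55 ± 0.111). Nc73EF, a 2-oxoglutarate dehydrogenase subunit, and the malic enzyme Men fell by 0.59 and 0.30, and PCB, pyruvate carboxylase, rose by 0.12. In glycolysis and its side branches 9 of 22 fell (40.9%), with a median of -0.19. Gpdh, which makes glycerol 3-phosphate, had 344, 313 and 363 scaled FPKM in knockdown flies, against 513, 471 and 535 scaled FPKM in control flies (log2 -0.57 ± 0.127). Its partner in the shuttle of electrons to mitochondria, Gpo-1, fell by 0.73, the hexokinase Hex-C by 0.61 and Pgk by 0.27. These counts were sensitive to single libraries: without any library other than control replicate 2 they were 1 to 3 genes lower in the cycle and 2 or 3 in glycolysis, and without control replicate 2 they were 11 and 8.

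Sugar-splitting enzymes and lysozymes of the midgut were lower in part. Of 17 tested carbohydrases 8 fell, against 10.1% of all tested genes, with a median of -0.81. Mal-A1, a maltase, had 16.0, 22.3 and 19.0 scaled FPKM in knockdown flies, against 80.8, 60.9 and 86.3 scaled FPKM in control flies (log2 -1.93 ± 0.343, adjusted p = 0.00374). Mal-A7 and Mal-A8 fell by 1.70 and 1.68, and tobi, an alpha-glucosidase gene named as a target of brain insulin, had 7.42, 7.58 and 8.02 scaled FPKM in knockdown flies, against 24.1, 26.9 and 35.5 scaled FPKM in control flies. Amy-p, an amylase and a gut marker, was not called, and its second knockdown library (26.4 scaled FPKM) lay among its controls of 23.2 to 35.1. Of 6 tested genes of the lysozyme list, enzymes that digest bacteria in the gut, 4 fell, with a median of -0.89: LysP at -0.98, LysD at -0.82, LysB at -0.96 and LysC at -1.13. LysC is annotated as a pseudogene of 242 bases whose locus overlaps that of LysD, so their reads cannot be fully told apart.

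Of 31 gut proteases 4 fell (12.9%) and 1 rose (3.23%), near or below the 10.1% and 5.9% of all tested genes. alphaTry had 667, 949 and 742 scaled FPKM in knockdown flies, against 1554, 1266 and 1515 scaled FPKM in control flies (log2 -0.89 ± 0.175), and betaTry, epsilonTry and Ser8 fell by 0.78, 1.27 and 1.20. Jon25Biii (named after its values were seen) went the other way, with 557, 773 and 663 scaled FPKM in knockdown flies, against 458, 254 and 436 scaled FPKM in control flies (log2 0.83 ± 0.213). The summed protease level overlapped between groups, at 6394, 9017 and 7426 FPKM in knockdown flies, against 9042, 7254 and 9771 FPKM in control flies. Of 22 genes of the vacuolar proton pump, which acidifies gut and other compartments, Vha100-1 and Vha26 rose by 0.16 and 0.18. That is 9.09% of the list, against 5.9% of all tested genes, and the list median was 0.05. The carbohydrases called lower were 3, 4 and 5 without control replicate 3, knockdown replicate 1 and control replicate 1, and without any of these a single lysozyme was, with 2 without knockdown replicate 3. Jon25Biii lost its call without knockdown replicate 2 or 3, and without knockdown replicate 1 or control replicate 3 no pump gene was called higher. Vha26 lost its call without each of the 6 libraries, with adjusted p up to 0.151.

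Several genes of metal handling changed. Ctr1B, a copper importer, had 35.8, 49.3 and 27.2 scaled FPKM in knockdown flies, against 8.40, 8.38 and 9.86 scaled FPKM in control flies (log2 1.92 ± 0.214, adjusted p = 0.000109). Metallothioneins, small proteins that bind copper and other metals, went down where called: MtnE had 11.0, 13.5 and 13.3 scaled FPKM in knockdown flies, against 37.3, 38.4 and 90.0 scaled FPKM in control flies (log2 -1.93 ± 0.343), and MtnD fell by 1.72. MtnA, a more abundant one named after its values were seen, had 2909, 3208 and 3597 scaled FPKM in knockdown flies, against 4659, 4176 and 5619 scaled FPKM in control flies, without overlap at -0.57 ± 0.208 but with an adjusted p of 0.0756. Mvl and ZnT63C, transporters of iron and zinc, rose by 0.21 and 0.16. In all, 4 of 20 tested genes of the list rose and 2 fell, against 5.9% and 10.1% of all tested genes, and without knockdown replicate 2 or control replicate 3 only 1 that rose was left. MtnD lost its call without knockdown replicate 1 or 3 or control replicate 3.

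Detoxifying enzymes were lower in part. Of 68 tested cytochrome P450 genes 21 fell (30.9%) and 1 rose (1.47%), against 10.1% and 5.9% of all tested genes, with a median of -0.29. Cyp28d1 had 6.79, 6.72 and 8.82 scaled FPKM in knockdown flies, against 23.6, 25.1 and 30.7 scaled FPKM in control flies (log2 -1.70 ± 0.226, adjusted p = 0.000546). Cyp6a9 and Cyp6a8 fell by 1.10 and 0.70, and Cyp6d4 rose with 9.99, 10.8 and 10.1 scaled FPKM in knockdown flies, against 4.40, 5.51 and 6.72 scaled FPKM in control flies (log2 0.80 ± 0.132). Glutathione transferases, which couple glutathione to toxic compounds, split, with 4 of 32 higher (12.5%) and 7 lower (21.9%). GstD3 and GstT1 rose by 0.29 and 0.17, and GstZ1 and GstE12 fell by 0.47 and 0.36. Besides Est-6, alpha-Est5, alpha-Est8 and alpha-Est1 were among the 5 of 13 esterases that fell, by 0.69, 0.47 and 0.33. None of the 10 UDP-glycosyltransferases was called by limma, and 2 had an unadjusted p under 0.05; the smallest adjusted p was that of Ugt58Fa (0.0571, at -0.39). Without control replicate 2, 2 were called lower. The P450 genes called lower were 7, 9, 10 and 13 without control replicate 3, knockdown replicate 2, knockdown replicate 1 and control replicate 1. Without any library other than control replicate 2 the transferases called lower were 1 to 3.

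Muscle, odorant-binding and cuticle genes had lower mean levels in every knockdown library than in any control, and eye and nerve genes overlapped between groups. Control replicate 2 was the lowest control in the mean level of each of these lists. All 29 muscle genes had a negative log2 difference, against 51.2% of all tested genes. Of them 10 fell (34.5%, against 10.1% of all tested genes), with a median of -0.50. Mf, the flight-muscle protein myofilin, had 805, 730 and 657 scaled FPKM in knockdown flies, against 1621, 1923 and 2006 scaled FPKM in control flies (log2 -1.34 ± 0.266). Zasp66, a Z-disc protein, fell by 0.57, Prm, paramyosin, by 0.81 and the kinase gene Strn-Mlck by 1.48. Mhc, the muscle myosin heavy chain, had 154, 154 and 209 scaled FPKM in knockdown flies, against 382, 161 and 230 scaled FPKM in control flies, so its groups overlapped and it was not called (adjusted p = 0.209). The 6 muscle markers summed to 2015, 1860 and 2165 FPKM in knockdown flies, against 4818, 3471 and 3918 FPKM in control flies.

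Of 31 photoreceptor genes 12 fell (38.7%) and 2 rose (6.45%), against 10.1% and 5.9% of all tested genes. Arr1 and Arr2, the visual arrestins, both fell by 0.58, and Arr2 had 311, 302 and 364 scaled FPKM in knockdown flies, against 525, 406 and 539 scaled FPKM in control flies (adjusted p = 0.00315). ninaB, which makes the chromophore of rhodopsin, fell by 0.63, and Calx, a sodium-calcium exchanger, rose by 0.30. ninaE, the main rhodopsin, (also a marker) had 984, 961 and 1057 scaled FPKM in knockdown flies, against 1264, 897 and 1211 scaled FPKM in control flies and was not called. Of 23 neuronal genes 3 fell, a share near the 10.1% of all tested genes: the dopamine genes DAT, Ddc and ple, by 0.50, 0.43 and 0.49. The 4 neuronal markers summed to 42.5, 41.4 and 52.0 FPKM in knockdown flies, against 79.7, 45.0 and 67.8 FPKM in control flies.

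Of 28 tested odorant-binding proteins, carriers in sensory organs and elsewhere, 8 fell (28.6%) and 1 rose (3.57%). The shares of all tested genes were 10.1% and 5.9%. Obp44a had 43.7, 35.7 and 43.7 scaled FPKM in knockdown flies, against 82.7, 74.6 and 73.2 scaled FPKM in control flies (log2 -0.89 ± 0.110, adjusted p = 0.000242), Obp56e, Obp57c and Obp57a fell by 1.13, 0.84 and 0.59, and Obp99a, named after its values were seen, rose by 1.00. Of 30 tested cuticle genes 9 fell (30%), with a median of -0.47. Cpr65Au had 95.0, 96.0 and 109 scaled FPKM in knockdown flies, against 224, 184 and 207 scaled FPKM in control flies (log2 -1.03 ± 0.160), and Cpr47Ea, Lcp65Ag2 and Cpr62Bb fell by 1.42, 1.26 and 0.76.

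The counts of these tissue lists moved with single controls. Without control replicate 2 the numbers called lower were 21 muscle, 22 photoreceptor, 15 neuronal and 15 cuticle genes. Without knockdown replicate 1 or 2 or control replicate 1 or 3 they were 2 to 4 muscle, 4 to 6 photoreceptor, 0 or 1 neuronal and 4 to 6 cuticle genes. Without knockdown replicate 3, 2 neuronal and 4 cuticle genes were called lower, and without knockdown replicate 1 or control replicate 3, 5 odorant-binding proteins were. The odorant-binding protein that rose, Obp99a, kept its call only without knockdown replicate 3 or control replicate 2. The part of tissue composition in these differences was not tested.

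**Figure D3:**
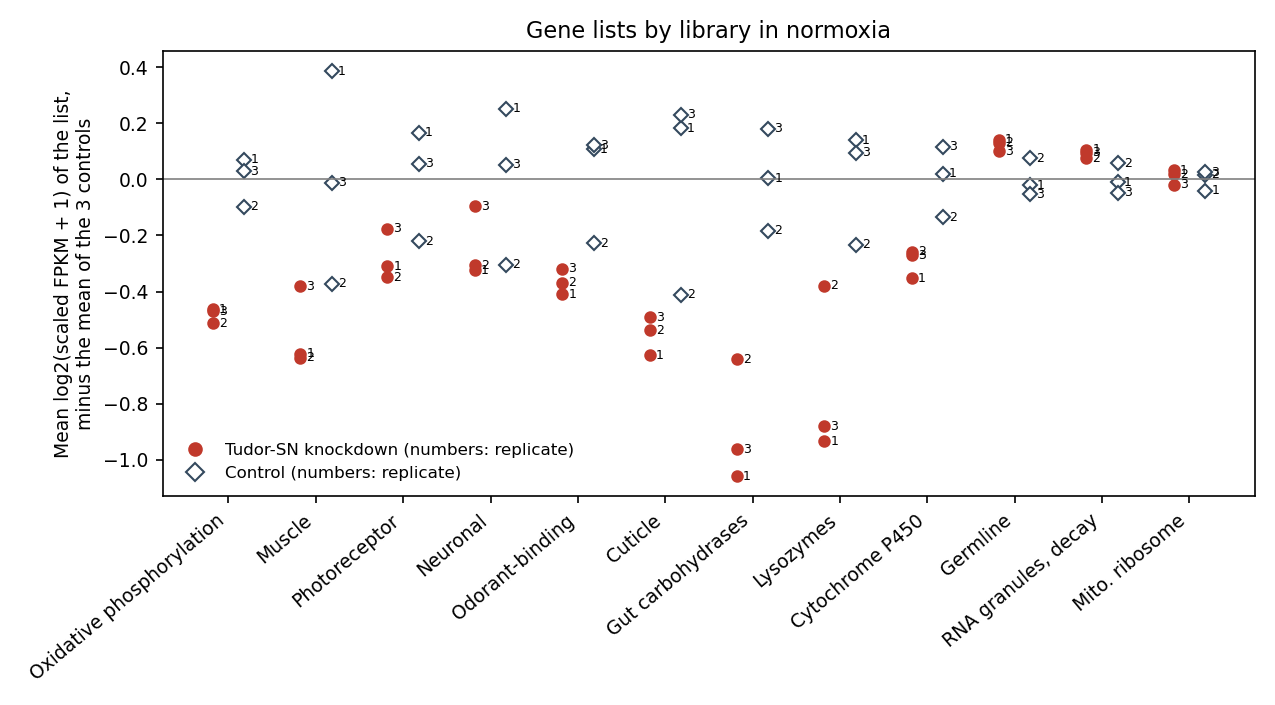
Mean log2(scaled FPKM + 1) of 12 gene lists in each library after subtracting the mean of the 3 control libraries, with knockdown libraries as filled circles left of control libraries as open diamonds and replicate numbers beside the points. Oxidative phosphorylation lies at -0.46 to -0.51 in the knockdown libraries, below all controls at -0.10 to 0.07, while muscle lies at -0.38 in knockdown replicate 3 and at -0.37 in control replicate 2, and the neuronal list at -0.10 in knockdown replicate 3 and at -0.30 in control replicate 2.

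Genes of the female germline leaned slightly the other way. Of 30 germline genes 5 rose (16.7%) and 1 fell (3.33%), against 5.9% and 10.1% of all tested genes, with a median of 0.13. osk, whose product assembles germ plasm at the posterior of the oocyte, had 580, 596 and 566 scaled FPKM in knockdown flies, against 447, 494 and 462 scaled FPKM in control flies (log2 0.31 ± 0.0559, adjusted p = 0.00274). bam, the switch from stem cell to cystoblast, rose by 0.51 and BicD by 0.19, while png, a kinase gene of egg activation, fell by 0.39. The 6 germline markers summed to 1023, 1020 and 999 FPKM in knockdown flies, against 839, 934 and 872 FPKM in control flies, without overlap. Of these 6 markers 1 was called higher. The cell-cycle genes CycA and polo rose by 0.26 each. They were the 2 of 25 replication and cycle genes called (8%), a share near the 5.9% of all tested genes that rose.

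The yolk and eggshell genes varied more within groups than between them. Their sum was 3965, 8754 and 4952 FPKM in knockdown flies, against 2331, 4461 and 8264 FPKM in control flies. yl, the yolk receptor of the oocyte, and fs(1)M3, a vitelline membrane gene, rose by 0.34 and 0.37. Of the 25 genes of this list 2 rose (8%), a share near the 5.9% of all tested genes. Yp1, a yolk protein, had 549, 713 and 548 scaled FPKM in knockdown flies, against 373, 547 and 764 scaled FPKM in control flies and was not called. Without any library other than control replicate 2 the germline genes called higher were 1 to 3, and CycA and polo lost their calls (adjusted p up to 0.117 and 0.121). yl and fs(1)M3 lost theirs without knockdown replicate 2 or control replicate 1.

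Partners of Tudor-SN in small-RNA silencing showed small or no called changes. Of 17 silencing genes Hen1, the methyltransferase that protects small RNA ends, and Ars2, a cap-binding partner of the pathway, rose by 0.25 and 0.21. AGO2, the Argonaute of RNA interference, had 53.6, 58.8 and 60.3 scaled FPKM in knockdown flies, against 54.9, 54.1 and 57.1 scaled FPKM in control flies, and Dcr-2 and vig, another member of the silencing complex, were not called either. These 3 are named as known members of the pathway, after their values were seen. Of 24 genes of the germline piRNA pathway, 3 rose (12.5%) and 1 fell (4.17%), against 5.9% and 10.1% of all tested genes. tapas, a Tudor-domain gene, had 65.4, 63.2 and 68.7 scaled FPKM in knockdown flies, against 55.3, 55.3 and 52.1 scaled FPKM in control flies (log2 0.27 ± 0.0499, adjusted p = 0.00312). CG12721 and del rose by 0.44 and 0.19, and shu, a co-chaperone of piRNA loading, fell by 0.25. tapas kept its call without any one library. Hen1, Ars2, CG12721, del and shu did not, with adjusted p up to 0.104, 0.160, 0.0908, 0.129 and 0.0525, the last without knockdown replicate 2.

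Genes of stress granules, P-bodies and mRNA decay leaned upward. Of 28, 5 rose (17.9%) and 1 fell (3.57%), against 5.9% and 10.1% of all tested genes, with a median of 0.13. In 17, all knockdown values lay above all control values, against 21.5% of all tested genes. Among all tested genes of 20 to 100 and of 100 or more scaled FPKM, 8.02% and 10.5% rose. The part of level in this lean was not tested. rin, the fly G3BP that seeds stress granules, had 198, 192 and 188 scaled FPKM in knockdown flies, against 160, 164 and 152 scaled FPKM in control flies (log2 0.28 ± 0.0747, adjusted p = 0.0232). Edc3, an enhancer of decapping, and me31B, a repressor helicase, rose by 0.20 each, and tut, an RNA-binding partner of bam, fell by 0.61. Of 24 splicing genes snRNP-U1-C, SF1 and x16 rose by 0.58, 0.22 and 0.24. These calls were weak: without knockdown replicate 1 or 2 or control replicate 1 or 3, none of the 28 granule and decay genes was called higher by limma, and without knockdown replicate 3 a single one was, while 10 had an unadjusted p under 0.05 in the full comparison. tut lost its call without any of the 6 libraries, and without any library other than control replicate 2 at most 1 splicing gene was called.

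Few ribosomal protein genes were called, and some genes of secretion rose. All 3 of 84 cytosolic ribosomal protein genes that were called fell, RpL41, RpS21 and RpL23A by 0.26, 0.22 and 0.22, and the median of the list was -0.07. Without knockdown replicate 2 or 3 or control replicate 3, and under quantile normalisation, the limma fit called none of the 84, and 12 had an unadjusted p under 0.05 in the full comparison. In secretion, 5 of 20 endoplasmic reticulum genes rose, against 5.9% of all tested genes, among them the translocon genes TRAM and Sec61alpha by 0.25 and 0.23 and prtp and SsRbeta by 0.19 and 0.17. Without knockdown replicate 2 a single one of the 20 was called higher, 2 were without control replicate 1 or 3 and 3 without knockdown replicate 1. TRAM had 51.6, 54.3 and 48.8 scaled FPKM in knockdown flies, against 43.6, 42.2 and 43.5 scaled FPKM in control flies. mbm, a gene of ribosome assembly, rose by 0.21, Rpn2 of the proteasome rose by 0.16 and Prosalpha1 fell by 0.31. The chromatin genes Pc and Su(var)3-9 rose by 0.32 and 0.20. Among the most abundant called genes, Nacalpha, which binds nascent chains at the ribosome, the cyclophilin Cyp1, Ran and pAbp rose by 0.23, 0.17, 0.21 and 0.13, and MRE16 fell by 0.52. Of the genes named here, Nacalpha, TRAM and mbm kept their call without any one library, and the adjusted p of the others reached 0.0506 (Sec61alpha, without knockdown replicate 2) to 0.224 (RpS21).

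Few heat-shock and immune genes were called under normal oxygen. Hsp22, a mitochondrial small heat-shock protein, had 50.0, 50.5 and 41.3 scaled FPKM in knockdown flies, against 63.4, 75.4 and 62.0 scaled FPKM in control flies (log2 -0.49 ± 0.0953). Hsp70Bb, 1 of several near-identical copies whose reads cannot be assigned with certainty, had 1.29, 1.44 and 1.28 scaled FPKM in knockdown flies, against 0.771, 0.531 and 0.524 scaled FPKM in control flies. At these low levels its call depended on the pseudocount, with an adjusted p of 0.129 at a pseudocount of 5. Of 11 oxygen-response genes 2 fell and 2 rose, 18.2% each, against 10.1% and 5.9% of all tested genes: Alas, the first enzyme of heme synthesis, fell by 0.50, bnl, an FGF of tracheal growth, by 0.37, and sima, the fly HIF alpha, and scyl rose by 0.21 and 0.25. Of 22 antimicrobial peptide genes Drsl5 fell by 0.70 (4.55% of the list). Of 11 tested blood-cell and basement-membrane genes 2 fell (18.2%), 1 rose (9.09%) and 8 were not called. The oxidases PPO1 and PPO2 of blood cells fell by 0.82 and 0.77, and the scavenger receptor crq rose by 0.15. None of the 22 peptidoglycan-recognition and related immune genes was called by limma (3 at an unadjusted p under 0.05, and 2 called lower without control replicate 2), nor any of 5 Turandot stress genes (0 at that level). Hsp22, Hsp70Bb and Alas kept their calls without any one library, and the other called genes named here each lost theirs without control replicate 3, with adjusted p up to 0.178 over the libraries left out.

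Akh, the hormone that mobilises fat and sugar, had 3.33, 3.93 and 4.25 scaled FPKM in knockdown flies, against 10.4, 8.59 and 10.5 scaled FPKM in control flies (log2 -1.16 ± 0.267, adjusted p = 0.0114), and its receptor AkhR fell by 0.46. Of 22 tested insulin and adipokinetic hormone genes 2 fell (9.09%) and 1 rose (4.55%), near the 10.1% and 5.9% of all tested genes. In the clock list 5 of 12 genes fell (41.7%). Pdf, the peptide of clock neurons, had 7.67, 8.04 and 8.55 scaled FPKM in knockdown flies, against 16.3, 13.0 and 15.1 scaled FPKM in control flies (log2 -0.79 ± 0.110, adjusted p = 0.000526). vri, cry and to fell by 0.52, 0.35 and 0.33, and without knockdown replicate 1 or 2 or control replicate 1 or 3 Pdf was the 1 clock gene called. Of 19 genes of ecdysone and juvenile hormone action 4 fell (21.1%) and 1 rose (5.26%), against 10.1% and 5.9% of all tested genes. The list median was -0.07, and 1 to 5 were called lower over the libraries left out in turn. Among the called were Eip71CD, Jheh1 and Kr-h1, down by 0.38, 0.35 and 0.49, and Hr96, up by 0.28. CG12262 was the 1 gene of 24 in fat metabolism that was called, at -0.31. Akh, Pdf and Eip71CD kept their calls without any one library, and the adjusted p of AkhR, Hr96, Jheh1, Kr-h1 and CG12262 reached 0.157, 0.0576, 0.0782, 0.0686 and 0.0756.

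One marker gene of the fly stocks differed. y, the yellow gene of cuticle pigment at the tip of the X chromosome (bases 356509 to 361245, sharing bases with 1 gene on the opposite strand), had 3.13, 3.10 and 3.16 scaled FPKM in knockdown flies, against 1.03, 1.33 and 1.27 scaled FPKM in control flies (log2 0.90 ± 0.140, adjusted p = 0.00116). It also differed at 6% oxygen (0.47) and at 2% oxygen (1.12). w and v, the other common markers, were at 0.13 and -0.14 and were not called. Whether genetic background differs between the groups was not tested.

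Shorter transcripts were called lower more often than longer ones. Among protein-coding genes whose longest annotated transcript is under 1000 bases, 17.2% fell and 2.61% rose, and among those of 4000 bases or more 6.96% fell and 7.14% rose. Without the oxidative phosphorylation genes, of which 51 of 73 are that short, 14.8% of the short class still fell. In the other libraries the same class did not lean lower in this way: 11.8% fell and 13.8% rose at 6% oxygen, and 8.61% fell and 16.3% rose at 2% oxygen. The mitochondrial ribosomal genes, with 50 of 72 in the short class, included 1 that fell. The part of transcript length in the calls was not tested.

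**Figure D4:**
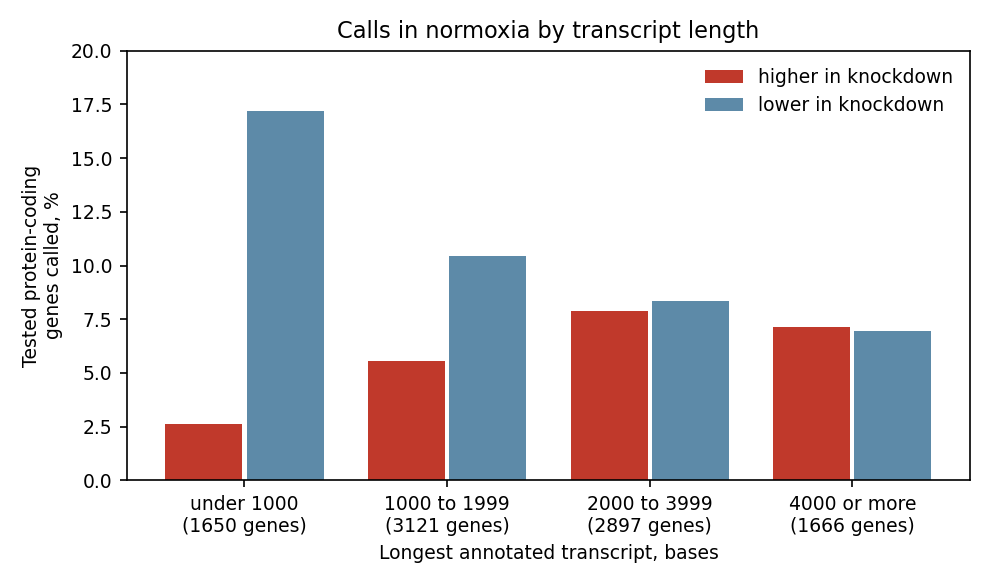
Percent of tested protein-coding genes called higher (left bars) and lower (right bars) in knockdown flies in normoxia, by the length of the longest annotated transcript, with the number of genes under each class. The lower share is 17.2% under 1000 bases and 6.96% at 4000 bases or more.

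The 12 libraries of the other oxygen levels measured the same genotypes again. Of the 585 genes that rose in normoxia, 556 (95.0%) had a positive difference at 6% oxygen, against 48.3% of all tested genes, and 294 rose there too, against 12% of all tested genes. Of the 1004 that fell, 965 (96.1%) had a negative difference at 6% oxygen, against 51.5% of all tested genes, and 482 fell, against 12.6%. At 2% oxygen 430 of the 585 and 785 of the 1004 kept their sign, 156 rose and 316 fell, against 11.7% and 8.5% of all tested genes, and 15 and 44 were called in the opposite direction. The median log2 differences of the normoxia calls shrank with less oxygen: 0.23 in normoxia, 0.17 at 6% and 0.07 at 2% for those that rose, and -0.49, -0.33 and -0.22 for those that fell. Because the genes were chosen on the normoxia values, a smaller difference elsewhere follows in part from that choice.

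Called the same way at all 3 oxygen levels were 102 genes that rose and 189 that fell. Est-6 was among them, at -2.36, -2.21 and -2.32 in normoxia, 6% and 2% oxygen, and ND-B8 was at -2.04, -2.21 and -2.52. otk2 (1.93, 1.53 and 2.33), CG32198 (3.21, 2.49 and 3.39), Cda9 (1.36, 1.66 and 1.83), Cyp6a9 (-1.10, -1.20 and -1.04), Pdf (-0.79, -0.76 and -0.53) and mRpL50 (0.49, 0.51 and 0.45) also passed at every level. Of the 73 respiratory genes 6 were lower at 6% oxygen, where 12.6% of all tested genes were. At 2% oxygen 48 were lower and 1 higher, against 8.5% and 11.7% of all tested genes. The list medians were -0.16 and -0.34, against -0.46 in normoxia. For none of these genes did limma call a change of the knockdown minus control difference between normoxia and either level. An unadjusted p under 0.05 was found for 31 of the 73 for 6% oxygen, against 10.3% of all tested genes, and for 2 for 2% oxygen.

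A change of the knockdown minus control difference between normoxia and 6% oxygen was called for 0 genes by limma (0.0%). An unadjusted p under 0.05 was found for 1017 genes (10.3%). Between normoxia and 2% oxygen such a change was called for 758 genes (7.64%). The knockdown minus control difference was higher in normoxia for 219 (2.21%) and lower for 539 (5.43%). Of the 758 genes, 81 had risen and 164 had fallen in normoxia. Among the largest were those of the nucleases CG3819 and CG6839, which fell in normoxia (-2.18 and -2.21) and rose at 2% oxygen (1.21 and 1.09). Ctr1B was up by 1.92 in normoxia and at 0.16 at 2% oxygen, and CG15199 was at -2.52 and -0.23. Hsp22 fell by 0.49 in normoxia and rose by 0.91 at 2% oxygen. CG8562, CG11741 and CG31681 were at 0.55, 0.38 and 0.59 in normoxia, and fell by 1.65, 1.69 and 1.39 at 2% oxygen. CG32302, CG12506 and CG11619 were at -0.44, 0.21 and 0.71 in normoxia, and rose by 2.60, 3.00 and 3.48 at 2% oxygen.

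**Figure D5:**
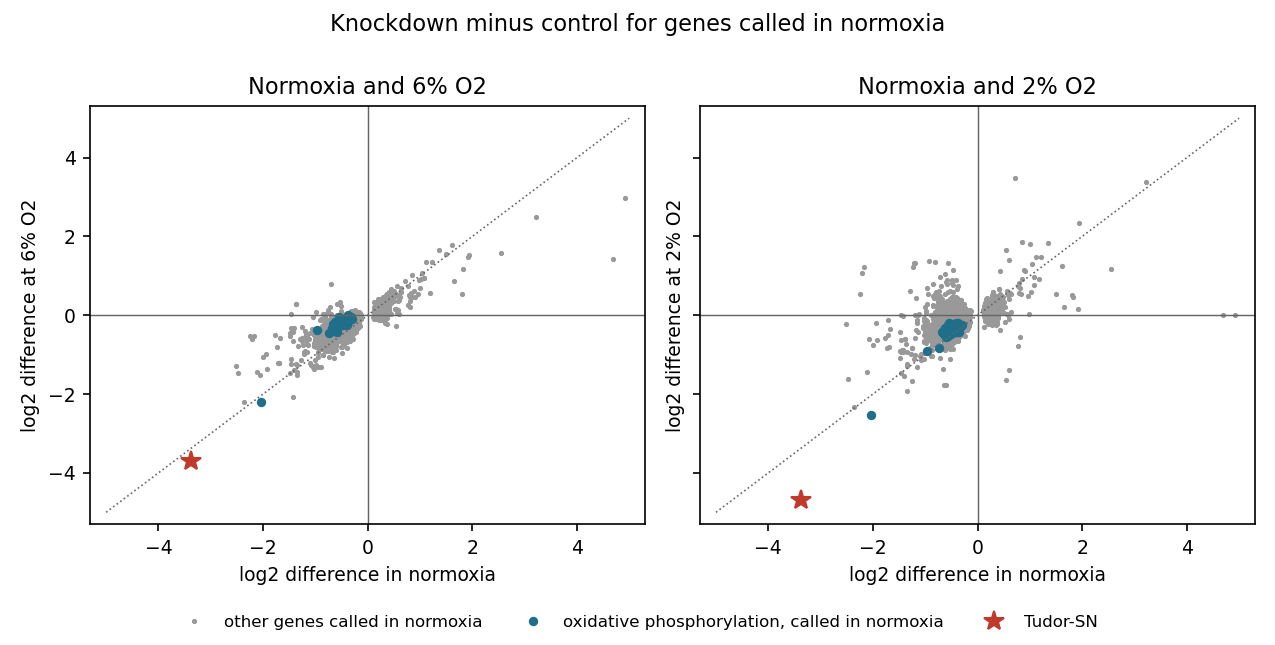
Log2 difference, knockdown minus control, at 6% oxygen (left panel) and 2% oxygen (right panel) against that in normoxia for the 1589 genes called in normoxia, with oxidative phosphorylation genes in blue, Tudor-SN as a star and the dotted line marking equal differences. At 6% oxygen 556 of 585 genes that rose and 965 of 1004 that fell keep their sign; at 2% oxygen 430 and 785 do.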

How the data were processed

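Poly(A) RNA of whole flies was read on a BGISEQ-500 sequencer, per the labels' protocols. The authors deposited FPKM tables of 17658 genes in 18 libraries, and the submitters' processing notes name TopHat2, HTSeq, Cufflinks and BDGP6, with no versions. The FPKM were scaled by median-of-ratios factors (0.945 to 1.034). They were compared as log2(scaled FPKM + 1) in limma 3.58.1 (R 4.3.3) with trend and robust, 6 group means over all 18 libraries and Benjamini-Hochberg adjustment. Genes with a mean under 1 FPKM were left out. The fit was tested on simulated data with independent noise in each gene and library. These data held no library-wide deviation like that of control replicate 2, so they cannot check how the calls depend on one. Depth was recovered from the spacing of low values: 559 of 697 single-transcript genes (80.2%) lay within 5% of the line, so counts were not rebuilt. 17521 identifiers were matched to an annotation of the same build.

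The members and gene lists were chosen with earlier results of these data known, so their counts are descriptions. The P450 list was narrowed afterwards to drop the cyclophilin Cyp1. Genes were named by a rule: Tudor-SN, the 15 largest differences each way among called genes whose groups do not overlap and whose higher mean is at least 2 scaled FPKM, the 5 most abundant called genes each way, up to 4 called genes of each list with the smallest adjusted p, the markers y, w, v and Yp1, and the 5 largest differences each way between normoxia and 2% oxygen. Others are marked as named after their values were seen, or are markers, neighbours or overlapping genes. The labels call the libraries biological triplicates of pooled flies. Same-numbered libraries did not deviate together (correlations of 0.116, -0.0137 and 0.0418), so the fit is unpaired. The alternatives were other pseudocounts, filters and scalings, array weights, a replicate block, the 6 libraries alone and each library left out.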

Additional observations from a re-analysis of the deposited data

Results flagged for a closer look

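The genes below had a difference between knockdown and control flies in normoxia that departed from the difference at 2% oxygen, by the interaction contrast of the limma fit at an adjusted p under 0.05. Each value is the log2 difference in normoxia minus that at 2% oxygen.

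A negative value means that the knockdown minus control difference was lower in normoxia than at 2% oxygen. It does not compare the levels of the 2 oxygen conditions. The contrast was -3.39 for CG3819, -3.29 for CG6839, -3.04 for CG32302, -2.79 for CG12506, -2.76 for CG11619 and -2.29 for CG15199. Digestive and detoxifying genes were at -1.73 (Mal-A1), -1.35 (LysD), -1.22 (Ser8), -1.21 (Cyp28d1), -0.95 (Cyp6a8), -0.86 (alpha-Est5) and -0.31 (GstD3). Stress and oxygen-response genes were at -1.40 (Hsp22), -1.11 (Hsp70Bb), -1.10 (bnl) and -0.44 (Alas). The clock genes vri and to were at -0.95 and -0.70, Ddc at -0.65, Hex-C at -0.73, Men at -0.57, Eip71CD at -0.51 and RpL41 at -0.48.

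Other genes had a higher knockdown minus control difference in normoxia than at 2% oxygen. CG8562 was at 2.20, CG11741 at 2.07, CG31681 at 1.98, Ctr1B at 1.76, CG32751 at 1.46, CG17234 at 1.39 and CG13078 at 1.35. Tudor-SN was at 1.32, since its difference was -3.37 in normoxia and -4.68 at 2% oxygen. The granule and decay genes rin and Edc3 were at 0.52 and 0.32, PCB at 0.43, mbm at 0.36, osk and BicD at 0.28 and 0.26, and Bmcp at 0.20. snoRNA:Psi18S-920 and snoRNA:Psi28S-2149 passed as well, and no size is given because all control libraries in normoxia are listed at 0.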

How the results depend on the processing

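Of 184 called genes named in the text, 140 kept their call under every other setting of pseudocount, filter, scaling, weights or block, and 94 kept it without any one library, with no reversal in either case. Array weights, which count libraries unequally, gave 1510 genes higher and 1904 lower, 107 and 2371 genes for the difference from 6% and 2% oxygen, and 1795 and 1242 genes called the same way at 6% and 2% oxygen. For the difference from 6% oxygen, where 0 genes were called by limma and 1017 had an unadjusted p under 0.05, quantile normalisation gave 27 and a filter at a mean of 5 FPKM gave 5. Leaving out 1 library gave 204 to 735 genes higher, 410 to 1500 lower, 42 to 68 respiratory genes lower, 0 to 1 and 366 to 1039 genes for the differences from 6% and 2% oxygen, and 358 to 1128 and 287 to 571 genes called the same way there. The higher end was without control replicate 2 in each case but the difference from 6% oxygen, where the 1 gene was called without control replicate 3. The Tudor-SN difference lay between -3.43 and -3.14 under all settings. The sign turned for genes that were not called: v (0.064) and ninaE (0.048) under quantile normalisation, and Yp1 (-0.11 to 0.41), CG32302 (-0.95 to 0.036) and vig (-0.026 to 0.085) with 1 library left out, the lowest without control replicate 1 for Yp1 and without control replicate 2 for CG32302 and vig. The cause of these shifts was not tested.

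With the replicate number as a block, 592 genes were higher and 1052 lower, and the same-numbered libraries are not known to be paired. The other counts with the replicate block were 68 respiratory genes lower, 0 and 726 genes for the differences from 6% and 2% oxygen and 848 and 502 genes called the same way, and Tudor-SN stayed at -3.37. Quantile normalisation made 53.6% of calls higher, against 36.8%. Values under 1 FPKM rest on few reads.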
